A study of Mus musculus with 4 samples.

Results

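The BEX family genes are the 5 mouse genes Bex1, Bex2, Bex3, Bex4 and Bex6, matched by Ensembl gene identifier among the 27597 genes listed in at least 1 of the 3 deposited tables. Bex3 is also written Ngfrap1. The family was selected on its RPKM in SKM against empty vector, where Bex1 and Bex4 stood out, so levels and ratios that involve these 4 groups are given as a description, with no test. The comparisons against empty vector share 1 empty vector value per gene, and those against SKM share 1 SKM value per gene.

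The cells were mouse embryonic fibroblasts of strain OGXICR, taken from skin at D13.5, and all 4 groups were infected in a doxycycline-inducible lentiviral system. SKM cells received Sox2, Klf4 and c-Myc, OSKM cells received Oct4 in addition, G3SKM cells received Gata3 in addition to SKM, and the last group received the empty vector. Each group is 1 deposited value per gene that stands for 2 replicates, so no spread between replicates can be given and no p-value is reported. The deposited RPKM (reads per kilobase of gene and per M reads of library) could be turned back into whole reads, at depths of 54.0 M reads (M for mega) in SKM, 74.7 M in OSKM, 101.5 M in G3SKM and 111.1 M in empty vector. The 95% intervals below come from exact methods and cover counting error only, because each group is 1 value. PCR copies of a molecule are each counted as a read, so the intervals can be too narrow even for counting error. Fibroblast markers summed to 642.8 RPKM in SKM, 380.0 RPKM in OSKM, 370.3 RPKM in G3SKM and 866.6 RPKM in empty vector, so they were present in each group. Sox2, one of the delivered factors, had 187 RPKM in SKM, 110.5 RPKM in OSKM and 70.7 RPKM in G3SKM, against 0.26 RPKM in empty vector.

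BEX genes (brain-expressed X-linked) encode small, largely unstructured adaptor proteins that are best known from neurons and neuroendocrine cells. BEX1 and BEX3 bind the intracellular part of the neurotrophin receptor p75, encoded by Ngfr, and link it to cell cycle exit, survival or death. The genes lie close together on chromosome X among the TCEAL genes, which encode related small proteins, while Bex6 lies on chromosome 16.

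The sequences upstream of the X-linked members fall into pairs. They are shown because Bex1 and Bex4, which share nearly all of their promoter, also had the most similar values across the groups. Their transcripts also share a run of 252 bases. The part of the promoter, or of reads that fit both genes, in this likeness was not tested. Each line gives the 250 bases before the annotated start, 5′ to 3′ on the gene's own strand, from RefSeq on GRCm38.p6. Capitals mark exact runs of at least 20 bases shared with the partner gene. Bex1 is at chrX:136215514-136215763 on the minus strand and Bex4 at chrX:136138746-136138995 on the plus strand. Bex2 is at chrX:136068237-136068486 on the minus strand and Bex3 at chrX:136270003-136270252 on the plus strand.
Bex1: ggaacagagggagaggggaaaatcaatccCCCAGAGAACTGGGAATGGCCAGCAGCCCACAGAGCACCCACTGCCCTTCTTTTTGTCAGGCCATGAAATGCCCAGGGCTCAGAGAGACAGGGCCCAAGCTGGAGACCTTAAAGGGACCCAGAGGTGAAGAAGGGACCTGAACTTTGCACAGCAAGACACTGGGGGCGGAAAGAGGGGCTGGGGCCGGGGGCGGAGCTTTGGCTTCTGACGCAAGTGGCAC
Bex4: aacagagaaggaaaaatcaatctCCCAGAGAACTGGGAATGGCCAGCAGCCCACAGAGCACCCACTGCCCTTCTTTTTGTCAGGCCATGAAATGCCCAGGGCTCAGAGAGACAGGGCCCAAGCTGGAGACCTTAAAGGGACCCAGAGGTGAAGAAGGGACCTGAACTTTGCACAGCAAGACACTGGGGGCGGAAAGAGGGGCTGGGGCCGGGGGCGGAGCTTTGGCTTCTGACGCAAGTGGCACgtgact
Bex2: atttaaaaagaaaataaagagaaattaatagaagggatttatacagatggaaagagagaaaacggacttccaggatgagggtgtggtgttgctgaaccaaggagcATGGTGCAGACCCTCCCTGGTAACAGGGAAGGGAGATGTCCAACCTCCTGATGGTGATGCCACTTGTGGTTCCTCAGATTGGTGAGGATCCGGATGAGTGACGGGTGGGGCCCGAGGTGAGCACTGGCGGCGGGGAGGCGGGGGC
Bex3: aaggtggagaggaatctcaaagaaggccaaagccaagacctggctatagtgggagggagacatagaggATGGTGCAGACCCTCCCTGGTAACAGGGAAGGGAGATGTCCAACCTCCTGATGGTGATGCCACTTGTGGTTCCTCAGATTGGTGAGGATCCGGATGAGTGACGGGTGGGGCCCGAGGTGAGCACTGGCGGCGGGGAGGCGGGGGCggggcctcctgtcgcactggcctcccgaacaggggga

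Bex1 and Bex4 shared an unbroken run of 221 bases, and their local alignment had 241 identical bases of 244 aligned. Against the promoters of all 27024 other genes, the best match of Bex1 was Bex4, with an alignment score of 234.5, and the next, Isg20, scored 39.5. Bex2 and Bex3 shared a run of 145 bases, with 148 of 149 aligned bases identical, and their next best match was Armcx4, an armadillo-repeat gene also on chromosome X. Between the pairs there was little in common, as the longest run shared by Bex1 and Bex2 was 8 bases. The pairs differed in their levels. Bex1 and Bex4 were high in the factor groups and nearly silent in empty vector. Bex3 was high in all 4 groups and Bex2 was lower in empty vector. Bex2 and Bex3 thus differed from each other despite their shared run, with ratios of SKM over empty vector of 4.63 and 0.989.

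Short motifs were searched on both strands in the 300 bases from 250 before to 50 after the start, with their frequency in 32851 promoters beside them, and no matches overlapped each other. The E-box CACGTG, which MYC proteins bind, was present in Bex1, Bex3 and Bex4 and in 7.15% of promoters. The KLF-type motif CCACACCC was found in Bex2 and in 3.56% of promoters, and GGGGCGGGG was found in Bex2 and Bex3 and in 11.4% of promoters. The E-boxes of Bex1 and Bex4 lie at the end of their shared run, and the GGGGCGGGG of Bex2 and Bex3 at the end of theirs. Matches within a pair are therefore not independent of each other. The SOX-type letters ACAAAG (18.7% of promoters) and CATTGT (12.6%), the octamer ATGCAAAT (1.74%) and the GATA letters AGATAA (11.2%) and TGATAA (9.05%) were absent from the windows of all 5 members. A match is a description of letters, not a binding site. CpG dinucleotides numbered 8 in Bex1, 12 in Bex2, 13 in Bex3, 9 in Bex4 and 3 in Bex6, beside a median of 7 over all promoters.

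In fibroblasts given factors, Bex1, Bex4 and Bex2 were higher than in empty vector cells, Bex3 was near or below its empty vector level and Bex6 was hardly detected. Bex1, a signalling adaptor, had 45.2 RPKM in SKM (95% interval 43.8 to 46.7), 38.8 RPKM in OSKM (37.7 to 39.97), 33.8 RPKM in G3SKM (32.9 to 34.8) and 0.309 RPKM in empty vector (0.232 to 0.405). The values rest on 3765 SKM reads, 4471 OSKM reads and 5294 G3SKM reads, against 53 empty vector reads, and all 4 intervals were separate. The level of Bex1 was thus highest in SKM and lower in OSKM and G3SKM. Both differences from SKM were smaller with the trend in transcript GC removed, as given below.

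Bex4, whose promoter is the one most like that of Bex1, had 29.1 RPKM in SKM (27.9 to 30.3), 28.0 RPKM in OSKM (27.0 to 29.0), 32.0 RPKM in G3SKM (31.1 to 32.9) and 0.199 RPKM in empty vector (0.136 to 0.281), from 2274 SKM reads, 3028 OSKM reads, 4700 G3SKM reads and 32 empty vector reads. Its order was G3SKM, SKM, OSKM, then empty vector, and the SKM and OSKM intervals overlapped. With bulk RNA, more cells that express a gene and more RNA per cell cannot be told apart, nor can fewer cells of a type and less RNA per cell.

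Bex2, an adaptor of the family, had 12.9 RPKM in SKM (12.1 to 13.6), 9.96 RPKM in OSKM (9.42 to 10.5), 7.32 RPKM in G3SKM (6.91 to 7.73) and 2.78 RPKM in empty vector (2.54 to 3.03), in the same order as Bex1 with no overlap of intervals. Bex3, the p75-binding adaptor, had 66.3 RPKM in SKM (64.7 to 68.0), 61.2 RPKM in OSKM (59.8 to 62.5), 54.4 RPKM in G3SKM (53.3 to 55.5) and 67.0 RPKM in empty vector (65.9 to 68.2). SKM and empty vector overlapped for Bex3. Its OSKM and G3SKM intervals lay below that of empty vector, and its level was lowest in G3SKM. Bex3 and Bex6 spans in the annotation did not give whole reads, so their read numbers are approximate. Bex6 was listed at 0 in SKM (upper limit 0.00955 RPKM) and at 0.0258 RPKM in empty vector (0.0154 to 0.0389, about 20 reads). The empty vector value was 3.24-fold a floor of 3 reads in the SKM library. That figure leaves out the counting error of the empty vector reads, so it is not a lower bound. Bex6 was not listed in the tables that hold OSKM and G3SKM.

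**Figure D1:**
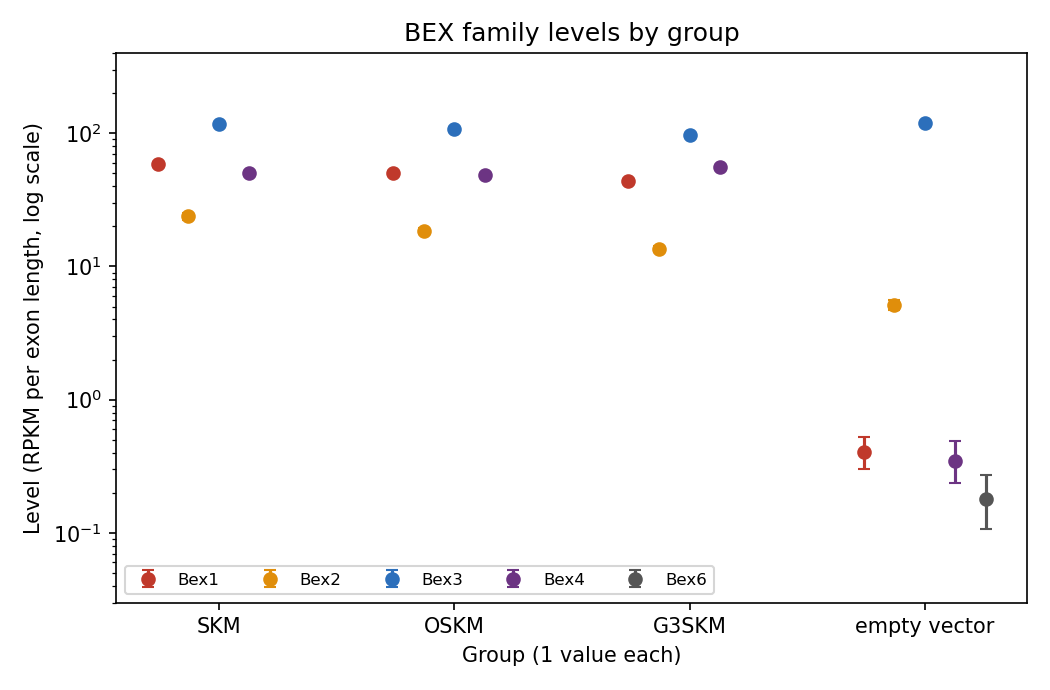
Levels of the BEX members in the 4 groups, in RPKM on exon length on a log axis, 1 value per group with 95% exact counting intervals, most of which are smaller than the points. Bex1 and Bex4 sit below 1 RPKM in empty vector and above 40 RPKM in the other groups, while Bex3 is near 100 in every group; Bex6 is drawn for empty vector only.

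The sum of the family and its make-up are best seen on exon length, since the deposited RPKM divide by the whole gene span including introns. On that scale the 5 members summed to 250.4 RPKM in SKM, 225.7 RPKM in OSKM and 209.2 RPKM in G3SKM, against 124.9 RPKM in empty vector. Bex3 made up 47.0% (SKM), 48.0% (OSKM), 46.1% (G3SKM) and 95.1% (empty vector) of the sum. The share of Bex1 was 23.5% (SKM), 22.3% (OSKM), 21.0% (G3SKM) and 0.322% (empty vector). The share of Bex4 was 20.1% (SKM), 21.4% (OSKM), 26.4% (G3SKM) and 0.275% (empty vector). The factor groups thus held a mixed family and the empty vector cells held mainly Bex3. By level on exon length among protein-coding genes, Bex3 ranked 277th in SKM, 292nd in OSKM, 347th in G3SKM and 293rd in empty vector, and Bex1 ranked 659th (SKM), 772nd (OSKM), 885th (G3SKM) and 12172nd (empty vector).

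**Figure D2:**
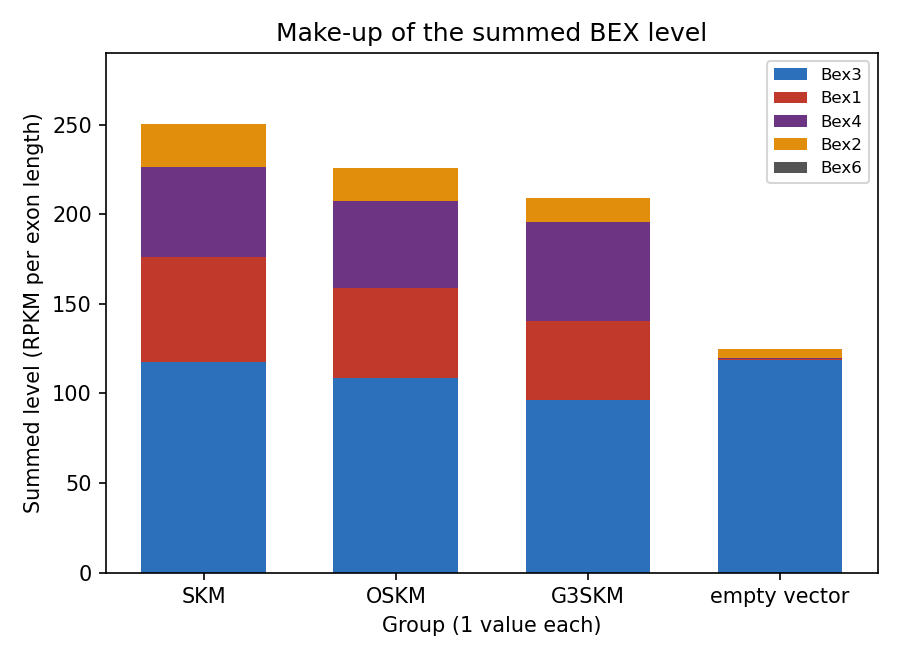
Summed level of the BEX members in each group, in RPKM on exon length, with each colour 1 member and no error bars as there is 1 value per group. The bars reach 250.4 in SKM, 225.7 in OSKM, 209.2 in G3SKM and 124.9 in empty vector, and Bex3 (blue) makes up nearly all of the last.

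Set against empty vector, a gene was called higher where the log2 of (RPKM + 1) in the first-named group over (RPKM + 1) in the other reached 1, and lower where it was -1 or less, provided that either group had 1 RPKM. In SKM against empty vector, 3 of the 4 members past that filter were called higher and none lower, where 8.88% of 10195 genes were called higher and 5.98% lower; this contrast chose the members, so the count is a description. The log2 ratios were 5.14 for Bex1, 4.65 for Bex4, 1.88 for Bex2 and -0.02 for Bex3, beside a median of 0.15 over all genes. The plain ratio was 146 for Bex1 (111.4 to 195), 146 for Bex4 (103 to 214), 4.63 for Bex2 (4.17 to 5.15) and 0.989 for Bex3 (0.959 to 1.02).

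The ratios of Bex1 and Bex4 in SKM over empty vector were nearly equal, and so was that of Tceal7, at 146 (92.2 to 248), although the empty vector side of these rests on 53, 32 and 18 reads. The intervals are far wider than the match, so it is not read as a shared ratio. It did not recur in the other groups, where Bex1, Bex4 and Tceal7 had ratios of 125, 141 and 91.4 in OSKM over empty vector and 109, 161 and 89.6 in G3SKM over empty vector. The cause of the near match was not tested.

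In OSKM against empty vector, 3 of the 4 members were called higher, where 4.82% of 10212 genes were called higher and 4.16% lower, with log2 ratios of 4.93 for Bex1, 4.6 for Bex4, 1.54 for Bex2 and -0.13 for Bex3. In G3SKM against empty vector, 3 of the 4 were called higher, where 7.11% of 10298 genes were called higher and 3.75% lower, with 4.73 for Bex1, 4.78 for Bex4, 1.14 for Bex2 and -0.30 for Bex3. Bex2 in G3SKM lay close to the limit: its log2 ratio was 0.93 after the trend with transcript GC was removed. Removing that trend placed Bex3 lower against empty vector, at -0.31 in SKM, -0.39 in OSKM and -0.54 in G3SKM. With exon length as well, Bex3 lay at -0.45 in SKM, -0.44 in OSKM and -0.59 in G3SKM, all short of the limit. Ranked from the highest, Bex1 was 3rd in SKM, 3rd in OSKM and 5th in G3SKM against empty vector, Bex4 was 8th in SKM, 4th in OSKM and 3rd in G3SKM, and Bex2 was 126th in SKM, 141st in OSKM and 508th in G3SKM.

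**Figure D3:**
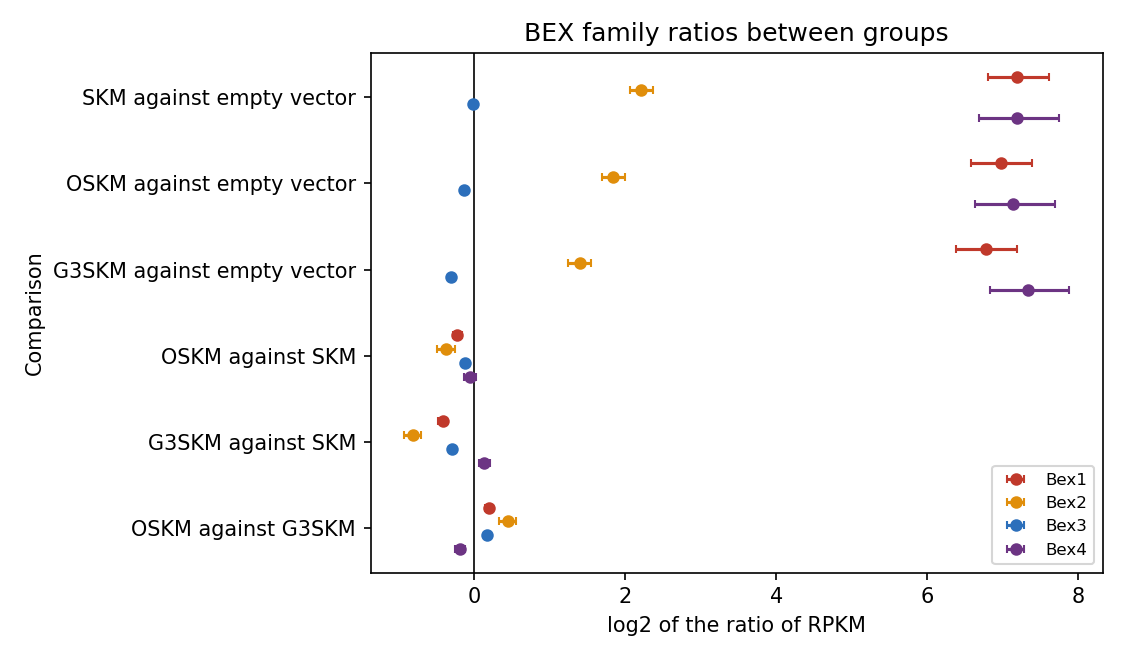
log2 ratio of RPKM for 4 BEX members in each of the 6 comparisons, with 95% exact counting intervals. Bex1 and Bex4 lie near 7 against empty vector, Bex2 between 1 and 3 and Bex3 at or just under 0, while all 4 lie within 1 of 0 among the factor groups.

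No member differed past the limit between the factor groups. In OSKM against SKM, 0 of the 4 were called higher or lower, where 2.55% of 10211 genes were called higher and 1.64% lower; the ratio was 0.859 for Bex1 (0.822 to 0.897), 0.775 for Bex2, 0.923 for Bex3 and 0.963 for Bex4 (0.912 to 1.02). In G3SKM against SKM, 0 of the 4 were called, where 4.43% of 10214 genes were called higher and 1.1% lower; the ratio was 0.748 for Bex1, 0.569 for Bex2 (0.525 to 0.617), 0.820 for Bex3 and 1.10 for Bex4 (1.05 to 1.16). Bex4 was thus the member that was not lower in G3SKM, but its log2 ratio of 0.13 was -0.12 with the GC trend removed. With that trend removed, the log2 ratio of G3SKM against SKM went from -0.41 to -0.25 for Bex1 and from -0.74 to -0.54 for Bex2. In OSKM against SKM it went from -0.21 to -0.06 for Bex1 and from -0.34 to -0.14 for Bex2. Bex4 moved the other way in OSKM against SKM, from -0.05 to -0.30. In OSKM against G3SKM, 0 of the 4 were called, where 0.724% of 10222 genes were called higher and 2.25% lower, and the ratio was 1.15 for Bex1, 1.36 for Bex2, 1.13 for Bex3 and 0.875 for Bex4.

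Among the 3 factor groups, Sox2, Klf4 and Myc stood in the same order of level as Bex1, Bex2 and Bex3, highest in SKM and lowest in G3SKM, and their part in these differences was not tested. Klf4 had 19.3 RPKM in SKM, 13.9 RPKM in OSKM and 8.55 RPKM in G3SKM, against 6.26 RPKM in empty vector, and Myc had 11.9 RPKM in SKM, 10.5 RPKM in OSKM and 6.31 RPKM in G3SKM, against 16.0 RPKM in empty vector. Ratios that involve SKM also moved with base composition: across genes, the log2 ratio went with transcript GC at Spearman's rho of -0.728 in OSKM against SKM and -0.730 in G3SKM against SKM, and 0.514 in SKM against empty vector, while it was 0.0646 in OSKM against empty vector and 0.00476 in G3SKM against empty vector. Genes are not independent replicates, and the transcripts of Bex1, Bex2, Bex3 and Bex4 hold 53.5%, 54.5%, 53.1% and 47.7% GC.

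Reads cannot be given to single members with certainty. The annotated transcripts of Bex1 and Bex4 share an exact run of 252 bases, 29.1% of Bex1 and 30.1% of Bex4, while Bex2 and Bex3 share 160 bases, and Bex1 and Bex2 share 108 bases, 12.5% of Bex1 and 12.0% of Bex2. Over the whole aligned transcripts, Bex1 was more like Bex2 (89.9% of aligned bases identical) than like Bex4 (82.6%). How reads that fit more than 1 member were counted is not given in the sources used here, and their part in the levels, that of Bex1 reads in the Bex2 ratios included, was not tested. Of the reads of Bex1 and Bex4 together, SKM had 37.7% from Bex4 (36.4% to 38.9%), OSKM had 40.4% (39.3% to 41.5%), G3SKM had 47.0% (46.0% to 48.0%) and empty vector had 37.6% (27.4% to 48.8%). The share was thus higher in G3SKM than in SKM, and the few empty vector reads give a wide interval there. In G3SKM against SKM, the log2 ratios of Bex4 and Bex1 were 0.13 and -0.41. With the GC trend removed they lay closer together, at -0.12 and -0.25. The part of base composition in the share was not tested. Bex1 also overlaps Tceal7 on the other strand, over 47.7% of its span. Tceal7 had 1281 SKM reads, 1106 OSKM reads and 1473 G3SKM reads, against 18 empty vector reads, and since no strand setting is given, reads of the overlap cannot be told apart between these genes.

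The chromosome X stretch from Bex2 to Bex3 holds 9 protein-coding genes, of which 4 are BEX and 4 are TCEAL, and its genes did not move as a block. Among the 7 TCEAL genes, which encode transcription elongation factor A-like proteins, 4 passed the filter in SKM against empty vector. Of these, 1 was called higher and 2 lower, where 8.88% of all genes were called higher and 5.98% lower. The median log2 ratio of the 4 was -0.81, beside 0.15 over all genes. In OSKM and in G3SKM against empty vector, 4 passed, and 1 was called higher and 0 lower. The 1 called higher was Tceal7 each time, which overlaps Bex1. Tceal7 had 2.09 RPKM in SKM, 1.31 RPKM in OSKM and 1.28 RPKM in G3SKM, against 0.0143 RPKM in empty vector. Its span holds 32.0% of the Bex1 exon bases. Its reads came to 34.0% (SKM), 24.7% (OSKM), 27.8% (G3SKM) and 34.0% (empty vector) of those of Bex1. The part of Bex1 reads in the Tceal7 values and calls was not tested. Tceal8, between Bex4 and Bex1, had 11.2 RPKM in SKM, 17.9 RPKM in OSKM and 18.5 RPKM in G3SKM, against 29.9 RPKM in empty vector, and Tceal9, beside Bex3, had 22.0 RPKM in SKM, 30.2 RPKM in OSKM and 35.8 RPKM in G3SKM, against 49.9 RPKM in empty vector. In SKM against empty vector both lay under the limit once the GC trend was removed, at -0.98 for Tceal8 and -0.63 for Tceal9, while on exon length with the GC trend removed Tceal8 was called lower, at -1.05, and Tceal9 was not, at -0.66. Tceal1, Tceal3, Tceal5 and Tceal6 were each near or under 1 RPKM in all 4 groups. Arxes1, an adipocyte-related gene next to Bex2, had 13.1 RPKM in SKM, 16.5 RPKM in OSKM and 8.0 RPKM in G3SKM, against 5.19 RPKM in empty vector, and Arxes2 beside it had 14.7 RPKM in SKM, 20.1 RPKM in OSKM and 12.0 RPKM in G3SKM, against 8.15 RPKM in empty vector. Over the other X-linked genes past the filter, 4.82% of 477 were called higher in SKM against empty vector and 9.64% lower. The balance was the other way in OSKM against empty vector, with 7.19% of 501 higher and 2.59% lower. It was so too in G3SKM against empty vector, with 5.99% of 484 higher and 2.27% lower. Over all genes, 8.88% (SKM), 4.82% (OSKM) and 7.11% (G3SKM) were called higher, and 5.98%, 4.16% and 3.75% lower.

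**Figure D4:**
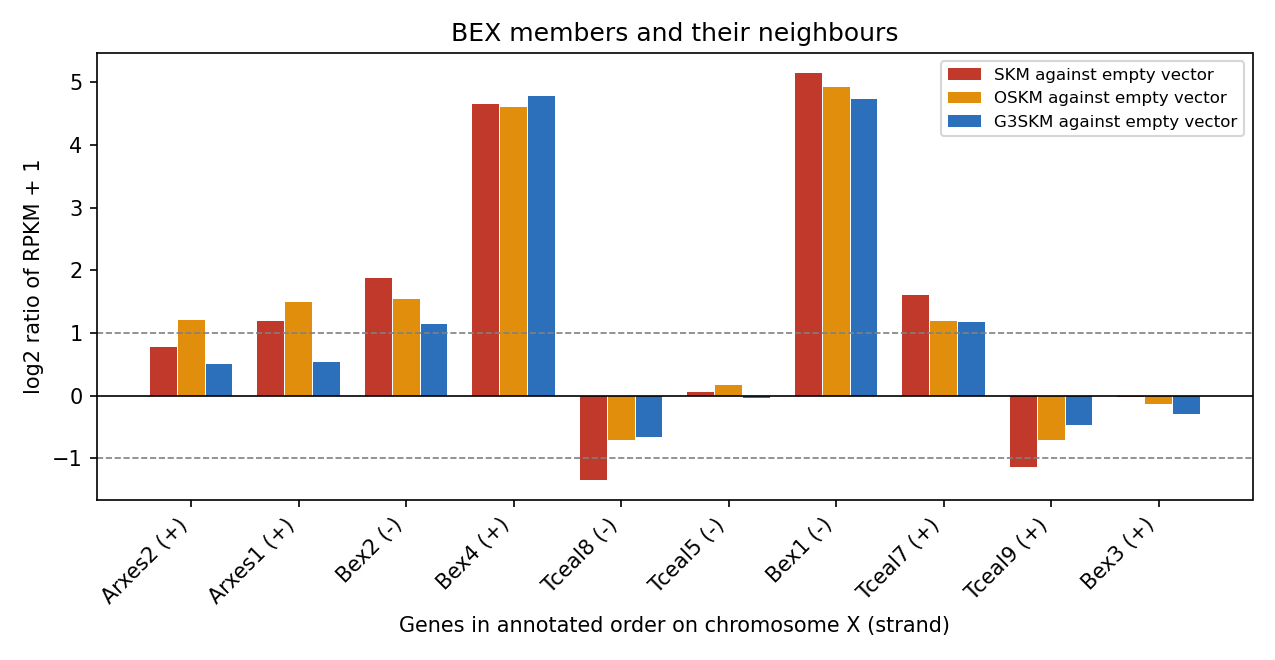
log2 ratio of RPKM + 1 against empty vector for genes in their order along chromosome X, 1 bar per factor group, with dashed lines at the limit of 1 and -1. Bex4 and Bex1 stand above 4.5 while Tceal8 and Tceal9, near them, are below 0, and Nxf3 and other genes without reads in SKM or empty vector are not drawn.

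The GASP and ARMCX genes encode armadillo-repeat proteins and lie mostly on chromosome X. Of these, 7 passed the filter in SKM against empty vector, where 5.98% of all genes were called lower. Armcx3 alone was called, lower there and in no other comparison. Armcx3 had 3.89 RPKM in SKM, 6.0 RPKM in OSKM and 6.34 RPKM in G3SKM, against 9.51 RPKM in empty vector. Its log2 ratio of -1.10 was under the limit with the GC trend removed, at -0.74, and with exon length as well, at -0.78. Of 16 genes of the p75 pathway and BEX partners, 4 or 5 passed the filter and none was called in any of the 6 comparisons. On exon length more passed and some were called: 3 of 11 were lower in SKM against empty vector, where 11.9% of all genes were called higher and 7.15% lower on that scale. In OSKM against empty vector 1 of 11 was higher and 2 were lower (8.92% and 4.92% of all genes), and in G3SKM against empty vector 2 of 11 were lower (10.2% of all genes higher and 4.87% lower). In OSKM against SKM 1 of 11 was higher (3.99% of all genes higher and 1.95% lower), in G3SKM against SKM 0 of 10 were called (4.07% and 1.03%), and in OSKM against G3SKM 1 of 11 was higher (1.51% and 1.91%). On exon length the BEX counts were 3 of 4 higher against empty vector in each factor group and 0 of 4 called between factor groups. Ngfr, the receptor that BEX1 and BEX3 bind, had 0.317 RPKM in SKM, 0.227 RPKM in OSKM and 0.205 RPKM in G3SKM, against 0.407 RPKM in empty vector, and Maged1, another p75 partner, had 52.4 RPKM in SKM, 46.5 RPKM in OSKM and 36.2 RPKM in G3SKM, against 54.1 RPKM in empty vector. On exon length Ngfr had 1.74 RPKM in SKM, 1.25 RPKM in OSKM and 1.12 RPKM in G3SKM, against 2.23 RPKM in empty vector. Rhoa, a small GTPase that p75 regulates, had 5.03 RPKM in SKM, 8.36 RPKM in OSKM and 6.86 RPKM in G3SKM, against 10.5 RPKM in empty vector. Its log2 ratio in SKM against empty vector was -0.93, and it was past the limit with median centring, at -1.08, with trimmed mean scaling, at -1.09, and on exon length, at -1.03.

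BEX genes are known from neurons, so neuron markers were read beside them. The 12 neuron markers summed to 31.1 RPKM in SKM, 27.1 RPKM in OSKM and 25.0 RPKM in G3SKM, against 6.61 RPKM in empty vector, and 3 (SKM), 4 (OSKM) and 3 (G3SKM) of them reached 1 RPKM, against 2 (empty vector). Past the filter, 2 of 3 were called higher in SKM, 3 of 4 in OSKM and 2 of 3 in G3SKM, each against empty vector. Over all genes, 8.88% (SKM), 4.82% (OSKM) and 7.11% (G3SKM) were called higher. On exon length the 12 summed to 214.4 RPKM in SKM, 194.5 RPKM in OSKM and 176.3 RPKM in G3SKM, against 46.0 RPKM in empty vector. The counts on exon length were 3 higher and 1 lower of 6 in SKM, 6 higher of 7 in OSKM and 3 higher of 7 in G3SKM. On that scale 11.9% (SKM), 8.92% (OSKM) and 10.2% (G3SKM) of all genes were called higher, and 7.15%, 4.92% and 4.87% lower. Uchl1 had 20.2 RPKM in SKM, 14.5 RPKM in OSKM and 15.1 RPKM in G3SKM, against 2.72 RPKM in empty vector. Stmn2 had 3.89 RPKM in SKM, 4.74 RPKM in OSKM and 4.56 RPKM in G3SKM, against 0.276 RPKM in empty vector. Nefl, a neurofilament subunit, had 0.615 RPKM in SKM, 3.81 RPKM in OSKM and 0.998 RPKM in G3SKM, against 0.0499 RPKM in empty vector. Elavl3 had 0.238 RPKM in SKM, 0.0267 RPKM in OSKM and 0.142 RPKM in G3SKM, against 0.0034 RPKM in empty vector. Tubb3 had 5.85 RPKM in SKM, 2.48 RPKM in OSKM and 3.75 RPKM in G3SKM, against 3.37 RPKM in empty vector. Syt1, Snap25 and Dcx were at most 0.0114 RPKM in all 4 groups, and none of the 12 was at 0. These RPKM divide by gene span including introns, so a low value is not read as absence. Markers of Schwann and neuroendocrine cells held no gene at 1 RPKM in any group. On exon length, 2 (SKM), 3 (OSKM) and 2 (G3SKM) of 6 Schwann markers passed the filter against empty vector, and 0 were called. Of the neuroendocrine markers, 0 passed on that scale. The keratinocyte list summed to 34.1 RPKM in SKM, 16.6 RPKM in OSKM and 23.1 RPKM in G3SKM, against 0.0706 RPKM in empty vector, with Krt14 alone of its 5 genes at 1 RPKM or more. The macrophage list summed to 3.88 RPKM in SKM, 1.87 RPKM in OSKM and 3.29 RPKM in G3SKM, against 28.6 RPKM in empty vector. The part of the neuron, keratinocyte and macrophage genes in the BEX results was not tested.

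By distance between log2(RPKM + 1) values over the 4 groups, each centred on the gene's mean, the gene most like Bex1 among 10859 others was Bex4, at 0.45, followed by Krt14, a basal keratin, at 0.69 and Bglap2, an osteocalcin, at 0.74. For Bex4 it was Bex1, and then, past the processed pseudogene Gm12245 at 0.46, Krt14 at 0.70 and Krt16, another keratin, at 0.77. Bex2 lay nearest to Gpr135 at 0.08, Pold2 at 0.12 and Lpcat4 at 0.13, and Bex3 to Sec16a at 0.02, Cbx6 at 0.04 and Fads1 at 0.04. With 4 groups, such likeness is a description only. Among the members, the distance was 2.97 between Bex1 and Bex2, 4.4 between Bex1 and Bex3 and 1.48 between Bex2 and Bex3.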

How the data were processed

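RNA-seq of mouse embryonic fibroblasts was read from 3 deposited tables. The expression values deposited by the authors are in RPKM, per the file headers. Beside them stands the log2 of the ratio of a table's RPKM columns, also deposited by the authors. TopHat 1.3.0 and mm9 are named in the submitters' processing notes. For the read counter, annotation, strand setting and combining of the 2 replicates, the steps were not given in the sources used here. The labels' protocols give amplified cDNA, further PCR, sonication and a DNA library kit. Values of 0.001 were read as 0. RPKM times gene span fell within 0.05 of whole reads for 74.8% of genes with 1 to 1000 reads in SKM, 75.8% in OSKM, 76.7% in G3SKM and 76.6% in empty vector, which gave the depths. Spans, exon lengths and GC came from a GENCODE annotation of a later build, so only promoter coordinates, from RefSeq, are given. Intervals are exact Poisson for levels, and exact Clopper-Pearson for ratios and shares. Depth recovery was tested on simulated data. Named genes were all members, all TCEAL genes, called or highest genes of the other lists, X neighbours and the 3 genes most like each member, provisional symbols left out (Gm12245, named beside Bex4, was added after values were seen). The members and lists were chosen with earlier results of these data known. The motifs and the near match of Bex1, Bex4 and Tceal7 were chosen for reporting after values were seen. Alternatives were pseudocount, filter, limit, centring, scaling, length and GC. Python 3.11.15, pandas 2.3.3, SciPy 1.17.1 and Biopython 1.88 were used.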

Additional observations from a re-analysis of the deposited data

How the results depend on the processing

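The count of members called kept within 1.5 times its value under all 66 alternatives. It was 2 in place of 3 against empty vector in SKM, OSKM and G3SKM with a limit of 2, and in OSKM and G3SKM with a pseudocount of 5, since Bex2 then lay under the limit. In G3SKM against empty vector it was also 2 with median centring (Bex2 at 0.97), trimmed mean scaling (0.97), the GC trend removed (0.93) and exon length with the GC trend removed (0.99). Of 264 alternative ratios of single members, 202 lay within their counting interval and 62 moved. The 202 include the settings of filter, limit and protein-coding genes alone, which cannot change a member's own ratio. No ratio of a called member changed sign. Uncalled Bex4 in G3SKM against SKM was -0.12 with the GC trend removed. Uncalled Bex3 in OSKM against SKM was 0.04 on exon length with the GC trend removed. The limits are 1 value per group, and empty vector read numbers of 53 for Bex1 and 32 for Bex4. No paired analysis was possible because each group is 1 column that stands for 2 replicates and no column carries a replicate number.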
